A study of Rattus norvegicus with 74 samples.

Results

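The SLC25 family comprises the carriers that move nucleotides, amino acids, keto acids, cofactors and metal ions across the inner mitochondrial membrane. Its members in these rat data were taken as all genes annotated protein_coding whose symbol is Slc25a followed by a number. This gave 43 of the 30560 genes in the count tables. Slc25a33 and Slc25a52 are annotated as pseudogenes there and were left out by this rule. Members were measured in whole red gastrocnemius, a hindlimb muscle rich in oxidative fibres (SM), in mitochondria isolated from that muscle (MT) and in the wall of the left ventricle of the heart (LV).

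A carrier of this family is a small membrane protein with a repeated fold that opens alternately to the intermembrane space and to the matrix, and most members exchange one solute for another. Several substrates are served by more than one gene. Heart and skeletal muscle both run on oxidative phosphorylation, which needs ADP brought into the matrix and ATP brought out, fatty acids brought in as carnitine esters, and cytosolic NADH passed in through the malate-aspartate shuttle. The carriers of these pathways are encoded in the nucleus and made in the cytosol.

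All rats were wild-type male Wistar Kyoto, 9 weeks old at sampling, and all drank water with deuterium oxide. Trained rats (ExT) ran on a motorised treadmill 5 days a week for 4 weeks from 5 weeks of age, reaching 60 min at 20 m/min, and control rats (Sed) spent the same time on a treadmill that stood still. Tissue was taken 24 h after training ended. The groups SM_Sed, SM_ExT, MT_Sed and MT_ExT held 15 libraries each from 30 rats, and LV_Sed and LV_ExT held 7 each from 14 of those rats. MT was captured by immunoprecipitation and treated with RNase-A and proteinase-K. SM libraries (50 ng of RNA) and MT libraries (10 ng) came from a Zymo ribosomal-depletion kit and LV libraries (100 ng) from an Illumina kit, so that tissue and kit cannot be told apart between LV and SM.

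Total counts were 19477976 to 39401323 per library in SM, 54645657 to 75758777 in LV and 530397 to 9988027 in MT. Heart markers summed to 29200 to 38600 scaled CPM in LV_Sed and 414 to 2420 in SM_Sed, and the 5 fast-fibre markers found of 7 to 49800 to 104000 in SM_Sed and 1.22 to 2.98 in LV_Sed. Scaled CPM are CPM after 1 TMM scaling over all SM and LV libraries. Endothelial markers summed to 242 to 481 in SM_Sed and 384 to 427 in LV_Sed, and adipocyte markers to 91.5 to 152 and 149 to 210. The part of these cells in the differences between tissues was not tested. LV_Sed rat 20 stood apart, with a correlation of 0.962 with its group's median profile against 0.988 to 0.996 for the other 6 libraries, and with liver transcripts described with Slc25a47. MT_ExT rat 2 stood apart in MT, with a correlation of 0.811 with its group's median profile, where the next lowest MT library had 0.883.

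RefSeq promoters were available for 36 of the 43 members (build GRCr8, 250 bases before to 50 after the start of the gene). The sequences shown are those of the carrier pairs on which the comparison of heart and muscle turns and of Slc25a25, which ranged widely among muscle libraries. Capitals mark matches to 4 motifs, each searched on both strands, so that a match on the other strand is printed as its reverse complement. These were the GC box, spelled GGGCGG, and the CCAAT box, which is named by its letters. The others were the cAMP response element, spelled TGACGTCA, and the element of the oestrogen-related receptors, spelled TNAAGGTCA. No matches overlapped in these 5 windows. Each is written 5′ to 3′ on the strand of its gene.
Slc25a12 (GRCr8 chr3:76599487-76599786, minus strand): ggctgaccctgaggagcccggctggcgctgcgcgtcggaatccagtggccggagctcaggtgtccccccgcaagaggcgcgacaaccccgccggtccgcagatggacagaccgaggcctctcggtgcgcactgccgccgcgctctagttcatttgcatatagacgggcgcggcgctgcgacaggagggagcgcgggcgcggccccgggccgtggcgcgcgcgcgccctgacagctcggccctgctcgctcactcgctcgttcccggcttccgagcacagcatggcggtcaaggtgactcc
Slc25a13 (GRCr8 chr4:35328311-35328610, minus strand): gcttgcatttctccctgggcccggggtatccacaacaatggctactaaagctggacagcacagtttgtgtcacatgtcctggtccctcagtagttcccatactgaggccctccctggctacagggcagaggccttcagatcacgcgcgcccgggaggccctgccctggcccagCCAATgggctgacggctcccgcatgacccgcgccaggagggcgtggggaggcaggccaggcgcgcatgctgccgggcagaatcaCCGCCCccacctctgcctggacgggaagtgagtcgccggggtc
Slc25a4 (GRCr8 chr16:52805271-52805570, plus strand): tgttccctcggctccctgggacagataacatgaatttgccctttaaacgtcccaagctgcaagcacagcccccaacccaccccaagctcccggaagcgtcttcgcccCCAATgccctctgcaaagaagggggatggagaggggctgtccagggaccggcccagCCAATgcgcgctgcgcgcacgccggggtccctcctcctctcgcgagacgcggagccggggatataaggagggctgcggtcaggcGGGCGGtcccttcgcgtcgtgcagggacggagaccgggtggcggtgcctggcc
Slc25a5 (GRCr8 chrX:120897366-120897665, plus strand): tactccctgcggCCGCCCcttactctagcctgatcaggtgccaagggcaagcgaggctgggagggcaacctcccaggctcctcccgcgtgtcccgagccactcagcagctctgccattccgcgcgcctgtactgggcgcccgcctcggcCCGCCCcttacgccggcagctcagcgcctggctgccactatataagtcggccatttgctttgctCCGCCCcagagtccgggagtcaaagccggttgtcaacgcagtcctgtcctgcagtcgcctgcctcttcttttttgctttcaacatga
Slc25a25 (GRCr8 chr3:36116532-36116831, minus strand): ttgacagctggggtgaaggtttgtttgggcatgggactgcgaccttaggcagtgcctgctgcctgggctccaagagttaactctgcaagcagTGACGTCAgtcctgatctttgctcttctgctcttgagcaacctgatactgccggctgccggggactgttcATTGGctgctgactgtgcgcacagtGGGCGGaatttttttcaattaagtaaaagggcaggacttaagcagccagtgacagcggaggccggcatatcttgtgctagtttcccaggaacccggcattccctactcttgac
A GC box was in 33.1% of all 33469 promoters in the table and in 23 of the 36 members, among them 11 of 13 matched members higher in LV than in SM in Sed and 6 of 9 lower. A CCAAT box was in 37.5% of all promoters and in 19 of the 36 members, 5 of the 13 and 7 of the 9. The cAMP response element was in 1.83% of all promoters and in 1 member, Slc25a25. The oestrogen-related receptor element was in 1.2% of all promoters and in 0 of the 36 members. The Slc25a12 window held none of these motifs, and that of Slc25a5 held 3 GC boxes.

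By group medians, the family held a larger part of unscaled nuclear-encoded counts in LV than in SM. Its share per library was 0.351% to 0.540% in SM_Sed (median 0.470%), 0.433% to 0.637% in SM_ExT (0.520%), 0.585% to 0.693% in LV_Sed (0.673%) and 0.610% to 0.702% in LV_ExT (0.660%). Slc25a4 alone gave 66.2% to 73.6% of the family's counts in SM and 66.4% to 70.0% in LV. The family here is the 43 members, which do not include Slc25a3, Slc25a16, Slc25a34 and Slc25a51. The LV_Sed libraries all lay above the SM_Sed libraries, whereas the LV_ExT and SM_ExT ranges overlapped. These shares are not scaled between libraries. In scaled CPM, Slc25a4, which holds most of the family's counts, overlapped between LV and SM and was not called by edgeR. In such whole-tissue samples, fewer cells of a type and less RNA per cell cannot be told apart. Counts were not divided by transcript length, so levels are compared between groups for the same gene, and genes are not ranked against each other.

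Individual carriers were compared between LV and the SM libraries of the same rats with edgeR, with p-values adjusted over all genes tested. The rat was not a term in this fit, so libraries of the same rat were treated as independent. The question was which carriers differ between heart and skeletal muscle. In Sed rats, 33 of the 43 members passed the filter on low counts. Of these, 15 were higher in LV, 11 were lower and 7 did not pass an adjusted p of 0.05. The 15 include Slc25a21, which passed the filter only through its LV counts. Most genes differ between these tissues: of 14367 genes tested 78.7% were called, 40.0% higher and 38.6% lower. The share of members called was thus close to that of all genes. In ExT rats 16 of 33 members were higher and 11 lower, against 39.7% higher and 39.5% lower, 79.3% in all, of 14338 genes. The median log2 fold change was 0.09 over members and 0.04 over all genes in Sed, and 0.20 and 0.01 in ExT. Libraries of the 2 tissues did not overlap for 20 of 33 members in Sed and 20 of 33 in ExT, against 56.0% and 57.1% of all genes tested. With library totals alone the median of all genes was 0.28 in Sed and 0.21 in ExT, and the split was 19 members higher and 8 lower in Sed (50.3% and 29.9% of all genes, 80.2% together) and 20 and 10 in ExT (47.5% and 31.7%, 79.2% together).

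**Figure D1:**
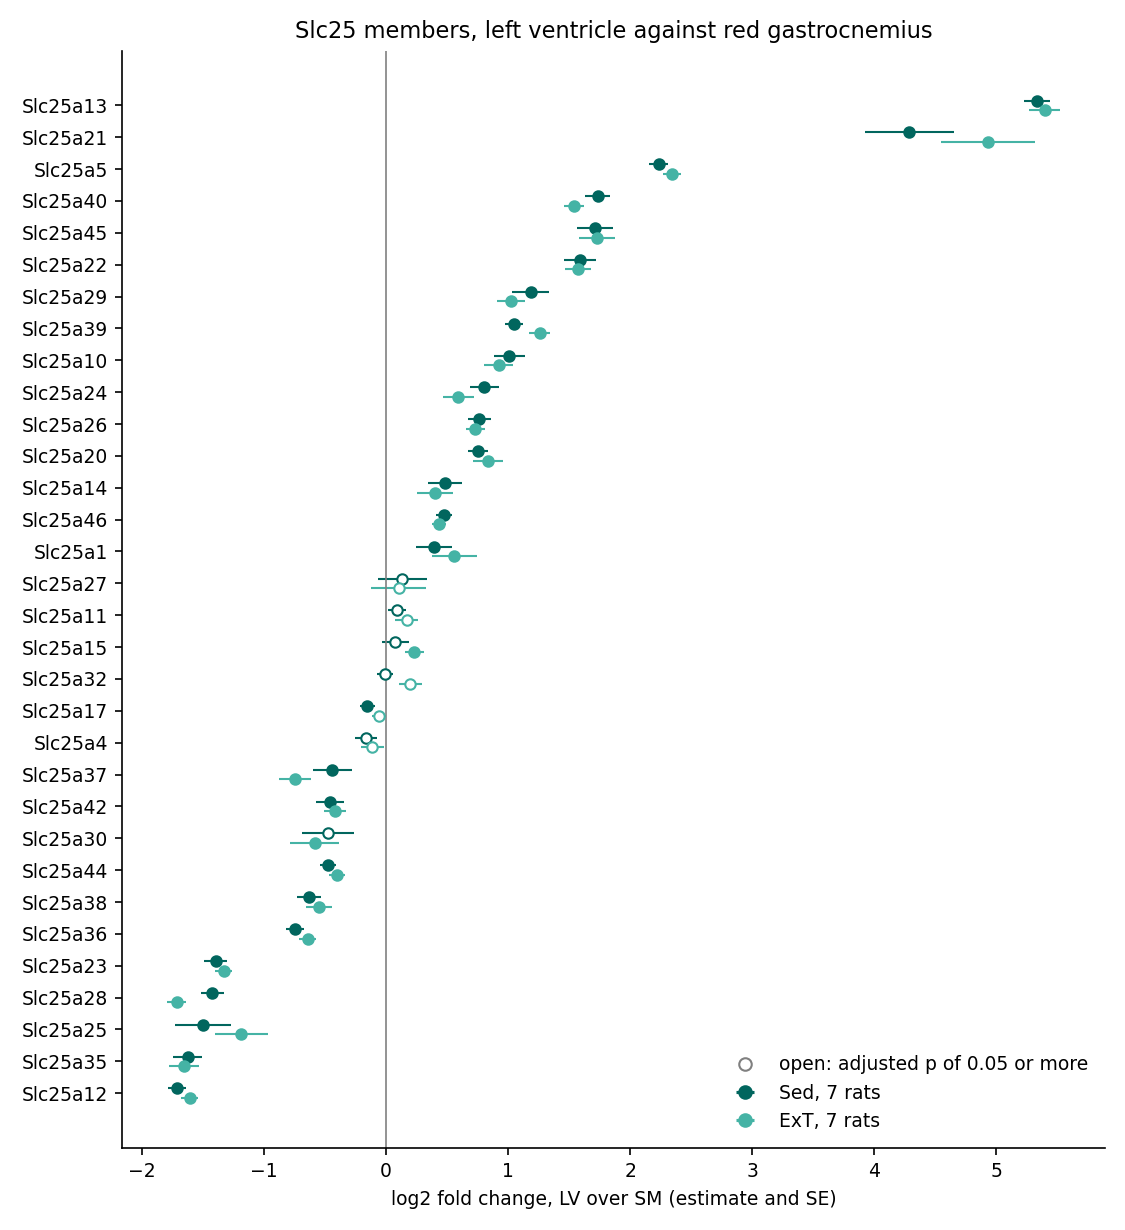
Log2 fold change of LV over SM with its standard error (horizontal axis) for 32 of the 33 members tested (vertical axis), in Sed and in ExT rats, 7 rats each. Filled points had an edgeR adjusted p under 0.05, and Slc25a13, Slc25a21 and Slc25a5 lay farthest to the right and Slc25a12 lowest in Sed. Slc25a21 passed the filter on low counts only through LV.

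The adenine nucleotide translocases exchange cytosolic ADP for matrix ATP. Slc25a4 (ENSRNOG00000010830) encodes the isoform of heart and muscle, known as ANT1, and Slc25a5 (ENSRNOG00000039980) the isoform of most proliferating tissues, ANT2. The level of Slc25a4 was 1923 to 2831 scaled CPM in SM_Sed (median 2393), 2125 to 2988 in SM_ExT (2480), 1835 to 2524 in LV_Sed (2245) and 2010 to 2573 in LV_ExT (2341). All 4 groups overlapped. Its log2 fold change of LV over SM was -0.17 (SE 0.0915, with 0.101 as the adjusted p of edgeR) in Sed and -0.11 (SE 0.0951, adjusted p 0.274) in ExT, and the sign turned with library totals alone (0.07 and 0.08).

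Slc25a5 was higher in the heart. Its level was 14.3 to 30.4 scaled CPM in SM_Sed (median 22.1), 17.1 to 36.05 in SM_ExT (23.2), 95.6 to 118 in LV_Sed (112) and 101 to 120 in LV_ExT (112). No SM library reached the lowest LV library. The log2 fold change was 2.23 (SE 0.0756, with 1.3e-15 as the adjusted p of edgeR) in Sed and 2.34 (SE 0.0725, adjusted p 3.3e-16) in ExT, higher in LV in 7 of 7 rats of each arm. Slc25a5 gave 0.739% to 1.23% of the counts of the pair Slc25a4 and Slc25a5 in SM_Sed and 4.01% to 5.09% in LV_Sed. Translocase genes have near-identical copies in the genome, and how reads were shared between these is not given in the sources used here, so small shares of the pair are uncertain. Slc25a6 did not pass the filter in this comparison, with at most 3 counts in any SM_Sed library and 8 to 30 in each LV_Sed library. In scaled CPM these were 0 to 0.108 and 0.0896 to 0.402. The germ-cell isoform Slc25a31 had 1 count over all 15 SM_Sed libraries.

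**Figure D2:**
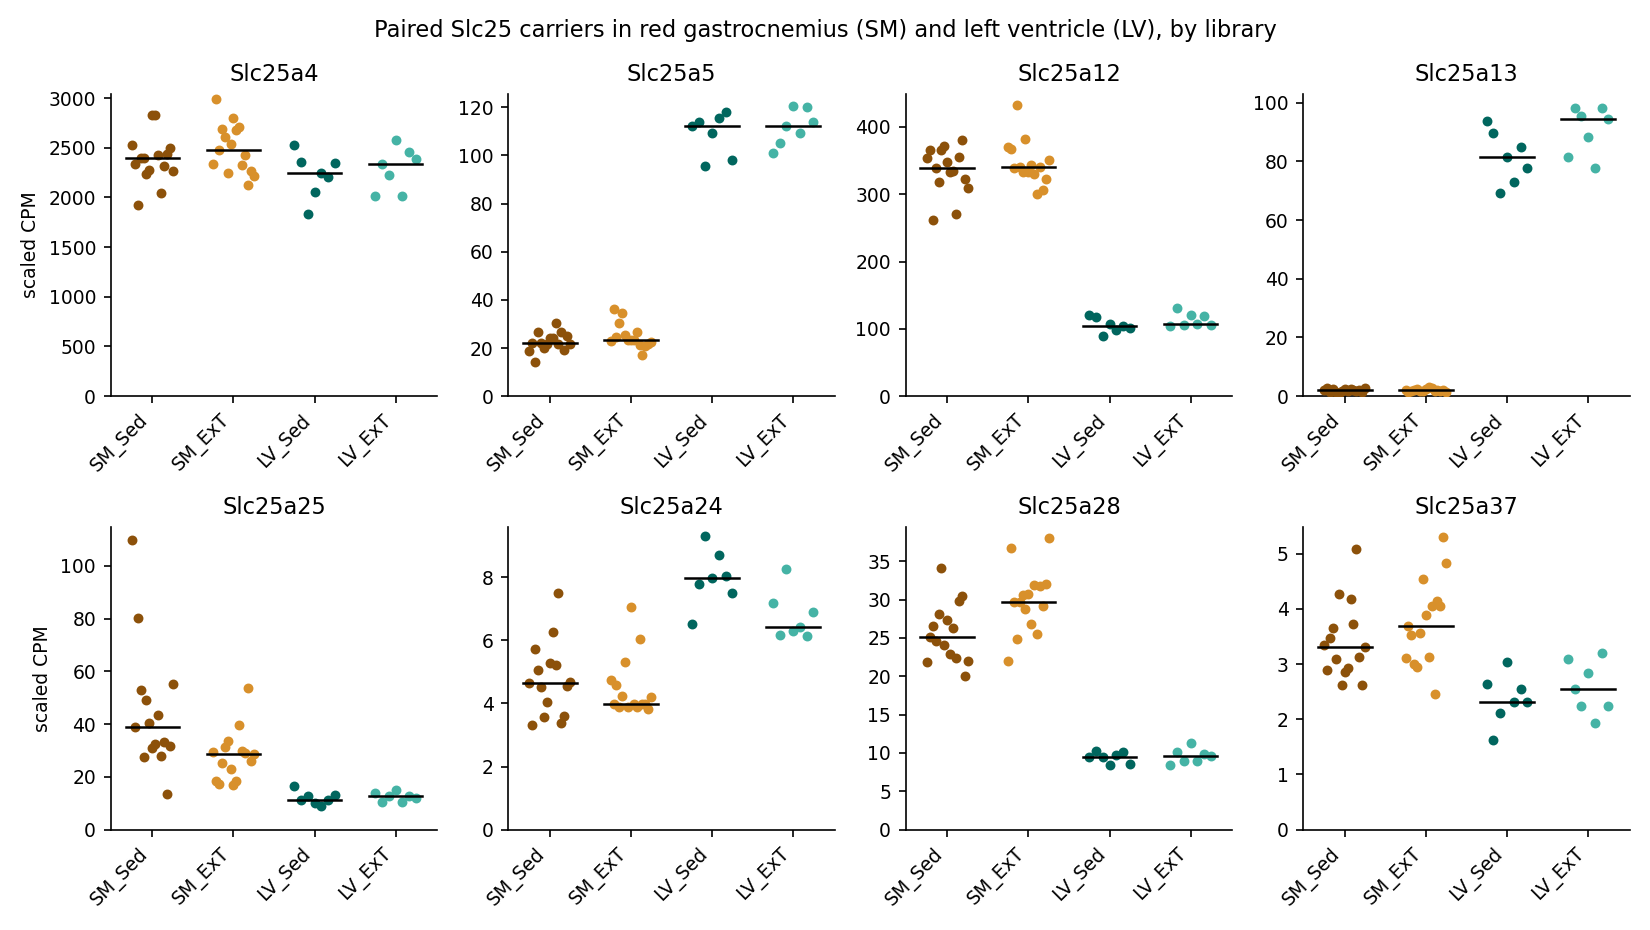
Scaled CPM per library (points, vertical axis from 0, one scale per panel) of 8 carriers of related pairs in SM_Sed and SM_ExT (15 libraries each) and LV_Sed and LV_ExT (7 each), with the group median as a line. Slc25a5 and Slc25a13 were higher and Slc25a12 and Slc25a28 lower in every LV library than in every SM library, whereas Slc25a4 overlapped in all 4 groups.

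The aspartate-glutamate carriers held the largest difference between the tissues. Slc25a12 (ENSRNOG00000022922) encodes aralar and Slc25a13 (ENSRNOG00000009957) citrin, the 2 calcium-regulated carriers that export aspartate from the matrix in the malate-aspartate shuttle. Slc25a12 had 262 to 380 scaled CPM in SM_Sed (median 339), 300 to 432 in SM_ExT (340), 90.1 to 121 in LV_Sed (104) and 105 to 130 in LV_ExT (107). Slc25a13 had 1.00 to 2.81 in SM_Sed (1.95), 1.47 to 3.13 in SM_ExT (1.95), 69.4 to 93.8 in LV_Sed (81.7) and 77.7 to 98.3 in LV_ExT (94.6). Neither gene overlapped between SM and LV. Slc25a12 was lower in LV, with a log2 fold change of -1.71 (SE 0.0745, with 6.3e-14 as the adjusted p of edgeR) in Sed and -1.61 (SE 0.0697, 5.7e-14) in ExT. Slc25a13 was higher, at 5.34 (SE 0.108, with 6.8e-19 as the adjusted p of edgeR) in Sed and 5.40 (SE 0.126, 1.2e-17) in ExT, and no other member tested had a larger change in either arm.

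The share of Slc25a13 in the counts of both carriers was 0.274% to 0.844% in SM_Sed (median 0.562%) and 0.410% to 0.906% in SM_ExT (0.615%). In the heart it was 42.8% to 44.9% in LV_Sed (43.5%) and 42.01% to 47.5% in LV_ExT (43.8%). A share within a library does not depend on scaling between libraries, but it counts reads and not molecules. The LV libraries of both arms lay close together and far from every SM library. Slc25a13 is also a liver gene, and without LV_Sed rat 20 its LV_Sed range was 73.1 to 93.8 scaled CPM.

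The other carrier of the shuttle, the malate-oxoglutarate carrier Slc25a11 (ENSRNOG00000003815), did not differ by the test. It had 142 to 237 scaled CPM in SM_Sed (median 200) and 186 to 243 in LV_Sed (208), a log2 fold change of 0.09 (SE 0.0716, with 0.254 as the adjusted p of edgeR) in Sed and 0.17 (SE 0.0921, 0.101) in ExT. It was called at 0.33 and 0.37 with library totals alone. Among the shuttle enzymes, cytosolic malate dehydrogenase Mdh1 was higher in LV_Sed (log2 fold change 1.26), mitochondrial Mdh2 lower (-0.69), cytosolic aspartate transaminase Got1 lower (-0.77) and mitochondrial Got2 higher (0.25). Both enzymes of the other NADH shuttle, Gpd1 (-1.97) and Gpd2 (-2.40), were lower in LV_Sed. The edgeR adjusted p of these 6 enzymes in Sed was 0.00914 or less. In ExT, 1 of the 6 was called higher in LV and 4 lower.

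**Figure D3:**
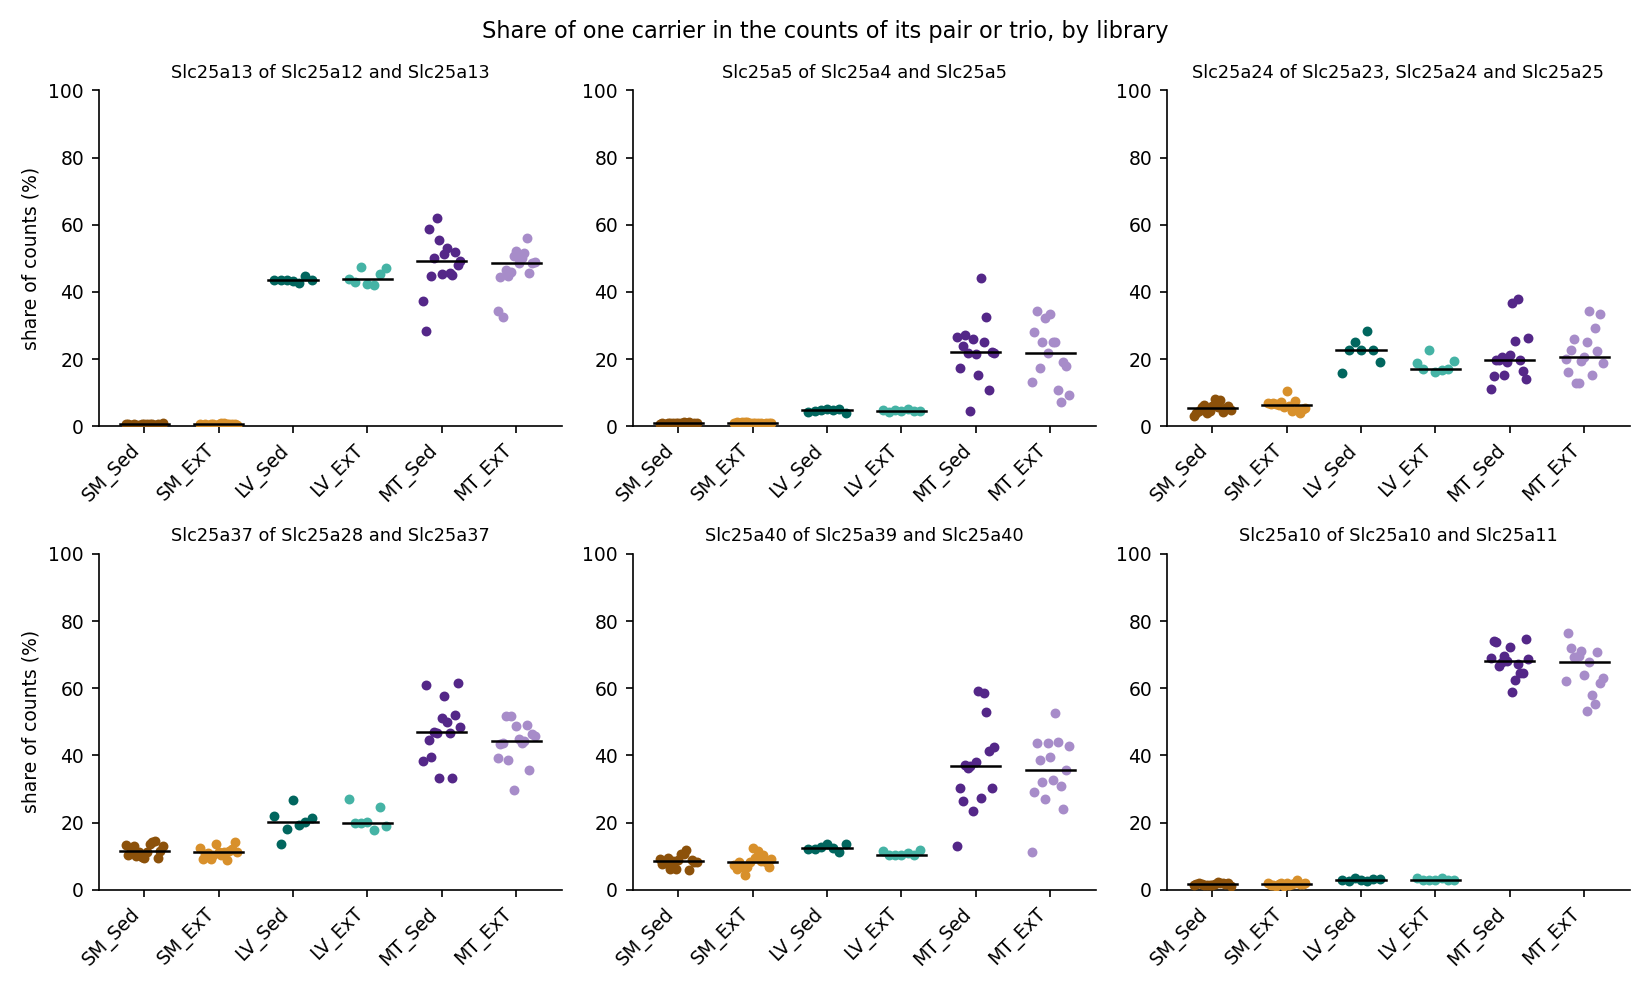
Percent of the counts of a pair or trio of related carriers that fell on one of them (vertical axis), for each library of the 6 groups, with the group median as a line. The share of Slc25a13 was under 1% in all SM libraries and 42.01% to 47.5% in LV, and shares in MT lay above those in SM in every set except that of Slc25a40, where they overlapped.

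The ATP-Mg/phosphate carriers set the adenine nucleotide pool of the matrix and respond to calcium. Slc25a23 and Slc25a25 were lower and Slc25a24 higher in LV. Slc25a23 (ENSRNOG00000047781) had 32.8 to 59.4 scaled CPM in SM_Sed and 12.8 to 18.4 in LV_Sed, which did not overlap, and a log2 fold change of -1.40 (SE 0.0930, with 4.4e-11 as the adjusted p of edgeR). Slc25a24 (ENSRNOG00000020470) had 3.33 to 7.497 in SM_Sed and 6.51 to 9.29 in LV_Sed, with a log2 fold change of 0.81 in Sed and 0.59 in ExT (edgeR adjusted p 5.13e-06 and 0.000268). These ranges overlapped. The share of Slc25a24 in the counts of the 3 genes was 2.97% to 8.05% in SM_Sed and 15.9% to 28.5% in LV_Sed.

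Slc25a25 (ENSRNOG00000014338) was the most variable of the 3 in muscle. It ranged from 13.6 to 110 scaled CPM in SM_Sed (median 38.9) and from 17.1 to 53.8 in SM_ExT (28.9), but from 9.07 to 16.6 in LV_Sed (11.4) and 10.5 to 14.9 in LV_ExT (12.8). The highest SM_Sed value was that of rat 4 and the lowest that of rat 30. Its log2 fold change of LV over SM was -1.50 (SE 0.232, with 3.5e-05 as the adjusted p of edgeR) in Sed and -1.19 (SE 0.217, 0.00015) in ExT, and the SM libraries of the same rats overlapped those of LV in Sed but not in ExT. The fourth member, Slc25a41, had 5 counts over all SM_Sed libraries and 0 in LV.

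The mitoferrins bring iron into the matrix for heme and iron-sulfur clusters, and both were lower in LV. Slc25a28 (ENSRNOG00000016751), mitoferrin 2, had 20.0 to 34.1 scaled CPM in SM_Sed (median 25.2), 21.97 to 38.0 in SM_ExT (29.7), 8.37 to 10.2 in LV_Sed (9.47) and 8.40 to 11.3 in LV_ExT (9.60). It was lower in every LV library, by a log2 fold change of -1.42 (SE 0.0918, with 2.7e-11 as the adjusted p of edgeR) in Sed and -1.72 (SE 0.0803, 1.85e-13) in ExT. Slc25a37, mitoferrin 1, had a median of 3.31 in SM_Sed and 2.31 in LV_Sed with overlapping libraries (log2 fold change -0.44, edgeR adjusted p 0.0172), and its call in Sed was lost with library totals alone. Slc25a37 gave 9.35% to 14.6% of the counts of the pair in SM_Sed (median 11.6%) and 13.7% to 26.7% in LV_Sed (20.1%), and these ranges overlapped. Slc25a38, which brings in glycine for heme, was lower in LV as well (-0.63 in Sed).

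The glutathione carriers were higher in LV. Slc25a39 had 22.7 to 31.6 scaled CPM in SM_Sed and 50.7 to 63.2 in LV_Sed, and Slc25a40 had 1.73 to 3.04 and 7.43 to 8.61. Both were higher in every LV library than in any SM library of the same arm. The log2 fold changes in Sed were 1.05 (SE 0.0763, with 1.8e-10 as the adjusted p of edgeR) for Slc25a39 and 1.73 (SE 0.0996, 4.6e-12) for Slc25a40.

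The carnitine-acylcarnitine carrier Slc25a20 (ENSRNOG00000020288), which brings fatty acids in for oxidation, was higher in the heart, with 37.1 to 87.2 scaled CPM in SM_Sed (median 68.6), 51.1 to 118 in SM_ExT (82.6), 99.9 to 130 in LV_Sed (123) and 115 to 154 in LV_ExT (130). Only the highest SM_ExT library reached into the range of LV_ExT. The log2 fold change was 0.75 (SE 0.0785, with 3.7e-08 as the adjusted p of edgeR) in Sed and 0.84 (SE 0.122, 5.8e-06) in ExT. Slc25a29 (ENSRNOG00000004351), a carrier of basic amino acids, was higher by 1.19 in Sed, and the dicarboxylate carrier Slc25a10 by 1.01. The glutamate carrier Slc25a22 was higher by 1.59, with 4.33 to 11.9 scaled CPM in SM_Sed and 20.8 to 24.7 in LV_Sed.

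The oxodicarboxylate carrier Slc25a21 (ENSRNOG00000008931), of lysine and tryptophan breakdown, was close to the detection limit in muscle. It had 0 to 7 counts per SM_Sed library and a level of 0.861 to 1.95 scaled CPM in LV_Sed against 0 to 0.230 in SM_Sed. Slc25a21 passed the filter only through its LV counts, so the direction of its test was set by the filter. Its log2 fold change was 4.29 (SE 0.368) in Sed and 4.94 (SE 0.386) in ExT, and the size rests on few SM counts. The citrate carrier Slc25a1 had 1.67 to 3.44 in SM_Sed and 2.35 to 3.91 in LV_Sed, higher by 0.39 (edgeR adjusted p 0.0221). That call in Sed rested on LV_Sed rat 20, the highest library, since without it the change was 0.30 with an edgeR adjusted p of 0.0586. In ExT, which does not hold that rat, the Slc25a1 median was 2.84 in LV and 2.03 in SM of the same rats. LV was higher in 5 of 7 of these rats, with overlapping libraries. The second glutamate carrier, Slc25a18, was too low to be tested and gave 0.730% to 7.97% of the counts of Slc25a18 and Slc25a22 in SM_Sed and 0% to 0.768% in LV_Sed. Its level was lower in LV in 7 of 7 rats of each arm.

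Of the remaining members tested, Slc25a45 was higher in LV (log2 fold change 1.71 in Sed), as were the S-adenosylmethionine carrier Slc25a26 (0.76), the outer-membrane protein Slc25a46 (0.48) and the uncoupling-protein relative Slc25a14 (0.48). Lower in LV in Sed were Slc25a35 (-1.63), the pyrimidine nucleotide carrier Slc25a36 (-0.75), the branched-chain amino acid carrier Slc25a44 (-0.48), the coenzyme A carrier Slc25a42 (-0.46) and the peroxisomal carrier Slc25a17 (-0.15). These 9 had an edgeR adjusted p of 0.0242 or less. Slc25a35 had 3.62 to 5.40 scaled CPM in SM_Sed and 1.24 to 1.71 in LV_Sed. Slc25a17 and Slc25a42 did not keep their calls in Sed with library totals alone. In ExT the Slc25a17 median was 50.8 scaled CPM in LV and 51.8 in SM of the same rats, with LV higher in 3 of 7 rats.

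Slc25a15, Slc25a27, Slc25a30 and Slc25a32 were also not called in Sed, with log2 fold changes between -0.48 and 0.13. Slc25a30, a relative of the uncoupling proteins, had 17.9 to 58.8 scaled CPM in SM_Sed against 20.1 to 30.4 in LV_Sed. It and the ornithine carrier Slc25a15 were called in ExT, at -0.58 and 0.23. The 10 members that did not pass the filter were Slc25a2, Slc25a6, Slc25a18, Slc25a31, Slc25a41, Slc25a43, Slc25a47, Slc25a48, Slc25a53 and Slc25a54.

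The training comparison asked whether 4 weeks of running moved the carriers in each tissue. In SM, 0 of 32 members tested were called by edgeR, against 28 of 13570 genes (0.206%, with 0.184% higher and 0.0221% lower), and 6 of the 32 members had an unadjusted p under 0.05, against 1860 of the 13570 genes. Levels in SM_ExT and SM_Sed overlapped for all 32 members, as they did for all genes tested (0.0% not overlapping). The median log2 fold change was 0.07 over members and -0.01 over all genes, and over members 0.08 in rats 2 to 16 and 0.00075 in rats 17 to 32. In LV, 0 of 34 members and 0 of 14488 genes (0.0%) were called by edgeR, with 6 of the 34 members under an unadjusted p of 0.05, against 855 of the 14488 genes, and DESeq2 called 0 members and 1 gene (0.0069%). The median was 0.04 over members and 7.1e-05 over all genes. LV_ExT and LV_Sed overlapped for all 34 members and did not for 0.0621% of genes. The summed slow-fibre markers were 4460 to 25300 scaled CPM in SM_Sed and 4670 to 27700 in SM_ExT, and their part in these values was not tested.

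The basic amino acid carrier Slc25a29 came nearest to a call in SM. It had 2.15 to 5.36 scaled CPM in SM_Sed (median 3.12) and 3.59 to 6.28 in SM_ExT (4.41). The groups overlapped, but the lowest trained library lay above the control median. Its log2 fold change was 0.41 (SE 0.110) with an edgeR adjusted p of 0.0974. DESeq2 called it, as the only member, at an adjusted p of 0.0345, and called 1.0% of all genes. By rat number the change was 0.57 in rats 2 to 16 (adjusted p 0.0438, in a fit that called 2.95% of genes) and 0.28 in rats 17 to 32 (adjusted p 0.82, with 0.00732% of genes called). Training gave a log2 fold change of 0.17 (SE 0.0986) for this gene in LV.

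Slc25a25 had the most negative value in SM, -0.66 (SE 0.219, with 0.187 as the adjusted p of edgeR). The value was -1.15 (adjusted p 0.0523) in rats 2 to 16 and -0.14 (adjusted p 0.966) in rats 17 to 32. Slc25a20 had 0.29 (SE 0.123, with 0.301 as the adjusted p of edgeR), or 0.56 and 0.03 in the earlier and later rats. Values with less spread between the rat ranges were those of mitoferrin Slc25a28, 0.22 (0.14 and 0.29), and of the folate and FAD carrier Slc25a32, -0.18 (-0.15 and -0.19), with adjusted p of 0.175 and 0.139. For the pairs with the sharpest contrast between tissues, the training values in SM were 0.07 for Slc25a4, 0.14 for Slc25a5, 0.05 for Slc25a12 and 0.08 for Slc25a13, none called. In LV they were 0.03, 0.03, 0.10 and 0.15. The difference of the training effect between LV and SM was called for 0 of 34 members (edgeR, 0.0% of 15049 genes, 1 member and 687 genes under an unadjusted p of 0.05; DESeq2 called 0 members).

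**Figure D4:**
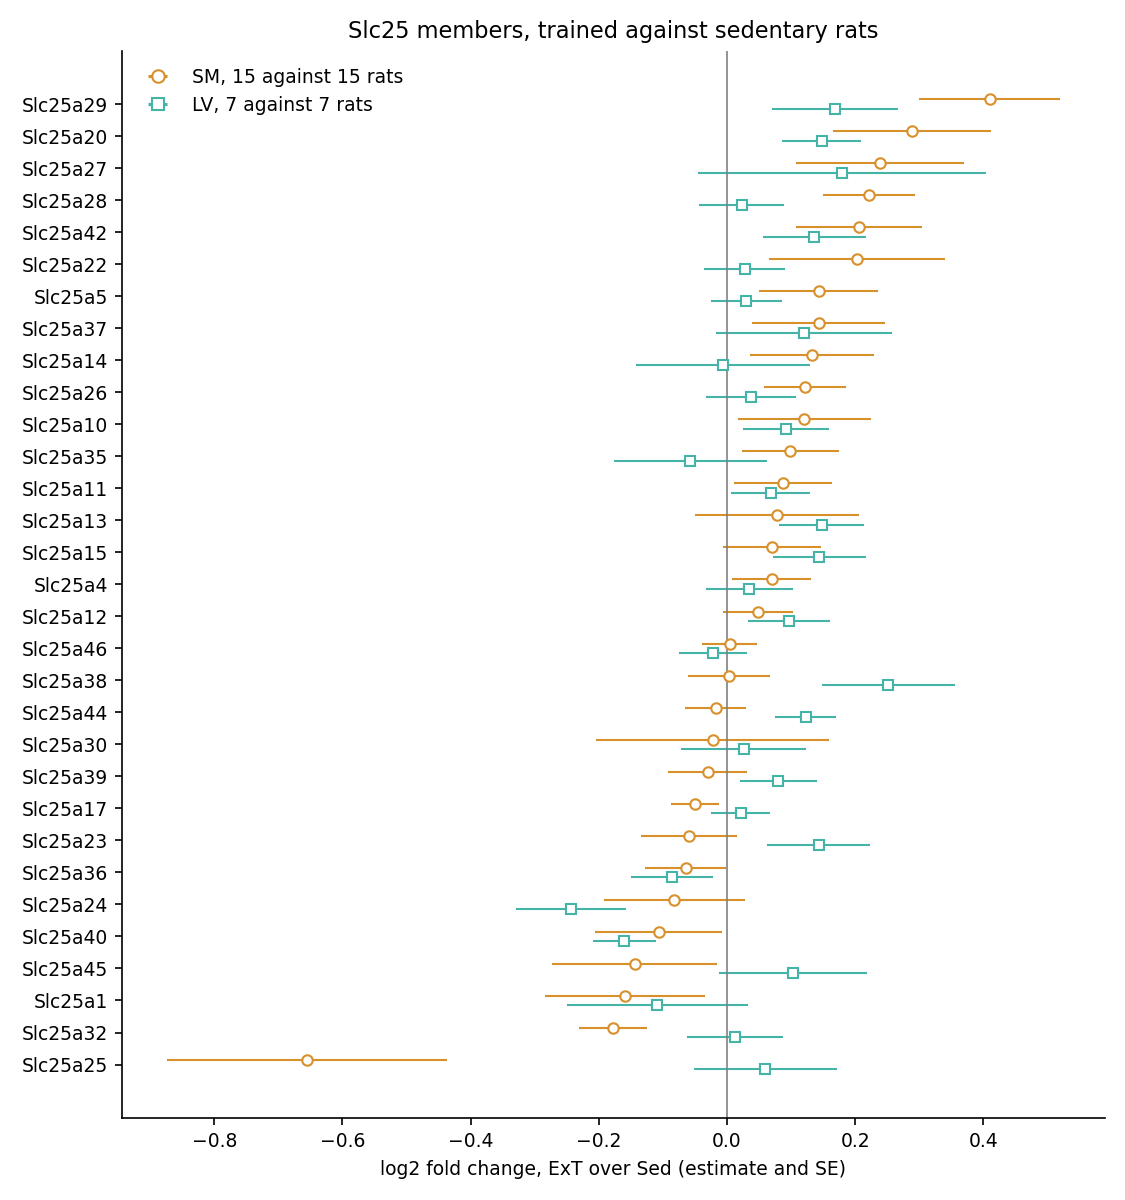
Log2 fold change of ExT over Sed with its standard error (horizontal axis) for 31 of the 32 members tested in SM (circles, 15 against 15 rats) and the same members in LV (squares, 7 against 7 rats). No member shown passed an edgeR adjusted p of 0.05 in either tissue, and Slc25a29 and Slc25a25 lay farthest from 0 in SM.

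In isolated mitochondria the levels of members spanned a narrower range than in whole muscle. These spans run over genes whose transcript length was not taken into account. Levels here are nuclear CPM, that is CPM over nuclear-encoded counts alone. Averaged over the 30 libraries of a type, members spanned 9.16 to 92.3 in MT (median 36.7), apart from Slc25a2 with 0 counts, and 0.00176 to 3410 in SM (median 6.52). The lowest SM mean rests on 1 count over the 30 libraries. Summed over all MT libraries, a member held 200 to 1972 counts, a 9.86-fold span. Across the 43 members, Spearman's rho between the mean level in SM and in MT was 0.52, a description over genes measured in the same libraries. The family held 0.147% to 0.177% of nuclear-encoded counts in MT, and Slc25a4 gave 1.16% to 8.29% of the family's counts there.

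Slc25a4 had 2355 to 3904 nuclear CPM in SM_Sed (median 3242) and 18.1 to 95.6 in MT_Sed (31.9), from 14 to 62 counts per MT library. No MT library came near the SM range. Its log2 fold change of MT over SM was -8.53 (SE 0.172, with 1.4e-39 as the adjusted p of edgeR) in Sed and -8.37 (SE 0.196) in ExT. The median of all genes was 1.81 in Sed and 1.31 in ExT, so relative to it Slc25a4 was at -10.34 and -9.68. That median depended on the genes tested, with 3.44 in Sed and 3.49 in ExT without the filter on low counts, 0.17 and 0.09 after thinning, and 2.14 in ExT without MT_ExT rat 2. Slc25a4 itself was at -8.69 and -8.54 without the filter, -6.86 and -6.55 after thinning and -8.64 in ExT without that rat. Next came Slc25a11 at -5.32 in Sed, Slc25a12 at -5.03, Slc25a5 at -3.72 and Slc25a46 at -3.16.

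Slc25a13 lay on the other side of 0. It had 1.32 to 3.89 nuclear CPM in SM_Sed and 27.9 to 74.6 in MT_Sed, with a log2 fold change of 2.28 (SE 0.131, with 1.7e-21 as the adjusted p of edgeR). The median of all genes in that fit was 1.81, so much of this value is shared by genes in general. That median was 3.44 without the filter on low counts and 0.17 after thinning. The share of Slc25a13 in the counts of the aspartate-glutamate pair was 28.3% to 62.0% in MT_Sed (median 49.1%). Slc25a10 gave 58.9% to 74.7% of the counts of Slc25a10 and Slc25a11 in MT_Sed and 1.11% to 2.26% in SM_Sed. Each of these shares rests on 42 to 126 counts per MT_Sed library.

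Members with almost no counts in whole muscle had counts in MT. Slc25a48 (ENSRNOG00000012040), a choline carrier, had 0 to 2 counts per SM_Sed library and 15 to 57 per MT_Sed library. Slc25a31, the translocase of germ cells, had 1 count over the 15 SM_Sed libraries and 4 to 19 in each MT_Sed library, and Slc25a54 had 3 counts and 5 to 21. Both were at 0 in all 15 SM_ExT libraries, and no fold is given for them. Among all protein-coding genes, 2628 had no count in any SM or LV library, and 2465 of these had counts in MT, with quartiles of 4.28 and 11.4 nuclear CPM and a median of 6.79. Of the 43 members, 40 lay above that upper quartile in MT, 2 within the quartiles and 1 below. Slc25a2, Slc25a31, Slc25a41 and Slc25a54, the 4 members with at most 25 counts over all SM and LV libraries, had MT means of 0 to 27.8. A place above the quartile thus does not set expressed members apart from near-silent ones. The quartiles were not matched for gene length. Whether counts on a member in MT come from its mRNA was not tested.

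By edgeR, 21 of 42 members tested were higher and 19 lower in MT than in SM in Sed, against 61.7% and 33.1% of 22842 genes (94.8% called in all). In ExT they were 18 and 19 of 41, against 59.3% and 35.0% of 21312 genes (94.3%). In SM libraries alone, 32 members and 13570 genes passed the filter. Members beyond these 32 were tested here only because of their MT counts. Their direction was thus set by the filter, and their calls are not separate evidence of a difference. The direction of the family depended on the scaling: library totals alone gave 27 higher and 10 lower in Sed and 26 and 9 in ExT. Over all genes that scaling gave 17616 higher and 2811 lower in Sed and 15734 and 2458 in ExT. RLE factors gave 23 and 19 members in Sed and 22 and 19 in ExT, with 15065 genes higher and 6524 lower in Sed and 13589 and 6535 in ExT. In Sed, 13 of 42 members were above the median of all genes, against 10 of 42 without the filter on low counts, 11 of 42 with mitochondrial-genome genes left out and 3 of 17 after thinning to the smallest total. Fitted values of members near 0 counts in SM depend on the prior count of the fit. With all libraries thinned to the smallest total, 17 members were left to test in Sed, of which 3 were higher and 11 lower (85.2% of genes called), and 14 in ExT, 3 and 8 (82.5%). Without MT_ExT rat 2 the counts in ExT were 18 and 19 of 42.

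Training changed 0 of 37 members in MT by edgeR (0.0% of 19281 genes, 1 member and 912 genes under an unadjusted p of 0.05, DESeq2 0 members). The training effect differed between MT and SM for 0 of 42 members, against 5 of 27684 genes (0.0181%, 0.00361% with the higher effect in MT and 0.0144% with the lower), with 6 of the 42 members under an unadjusted p of 0.05, against 2354 of the 27684 genes, and 0 members called by DESeq2. The lowest adjusted p among members was 0.319, for Slc25a29, at a difference of -0.63 (SE 0.195) by edgeR.

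**Figure D5:**
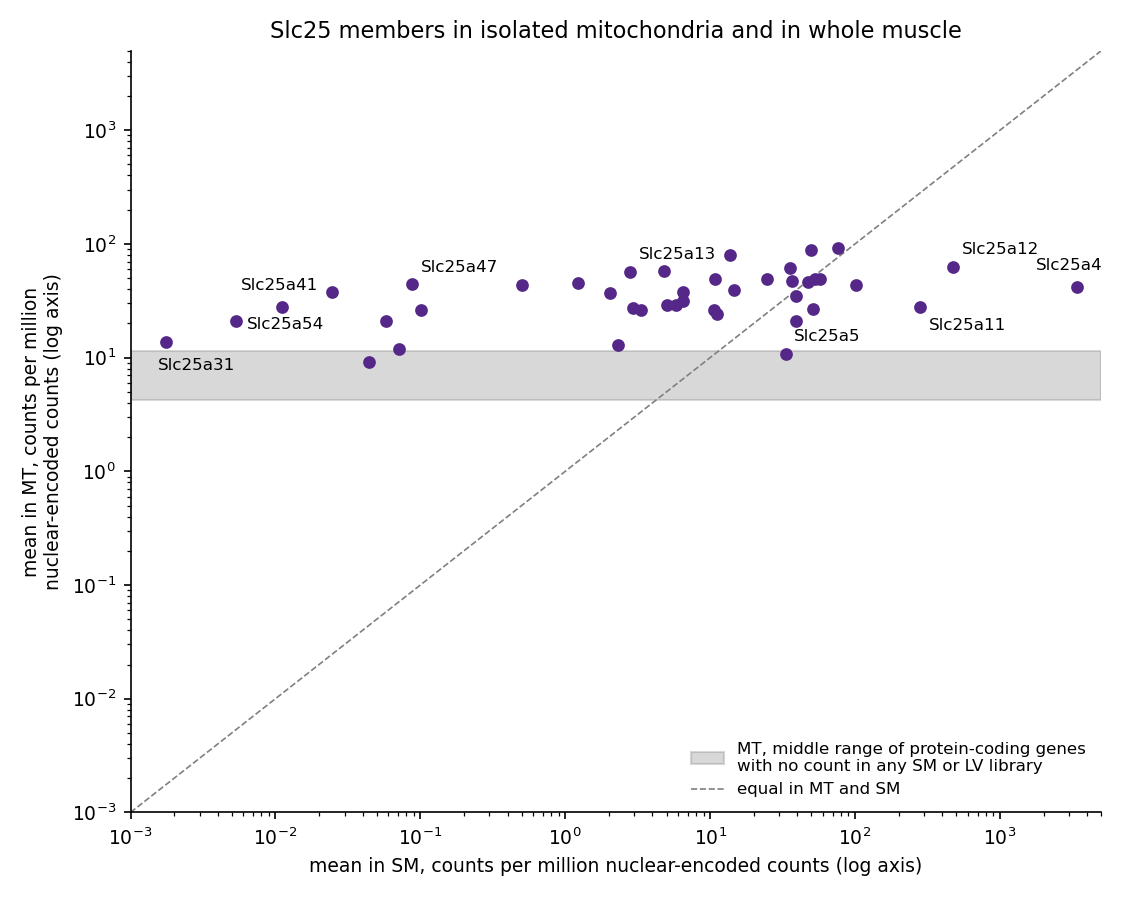
Mean level of each member with counts in both, in SM (horizontal axis) and MT (vertical axis), both in nuclear CPM on log axes over 30 libraries each. Members spread over several orders of magnitude in SM lie between 9.16 and 92.3 in MT, and 2 of them within the grey band (4.28 to 11.4), the quartiles of protein-coding genes without a count in SM or LV.

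Other genes of mitochondrial solute traffic formed a list of 47 outside the Slc25 symbols. Of 45 tested in Sed, 21 were higher and 19 lower in LV than in SM, and in ExT 18 and 19. Over all genes tested, 40.0% were higher and 38.6% lower in Sed, and 39.7% and 39.5% in ExT. The uncoupling proteins diverged: Ucp2 was higher (log2 fold change 2.20), with 5.62 to 10.7 scaled CPM in SM_Sed and 28.96 to 47.4 in LV_Sed, and Ucp3 lower (-2.11), with 29.4 to 149 and 12.3 to 17.8. The outer-membrane protein Tspo was higher in LV (3.42) and the main channel Vdac1 lower (-1.19). Of 5 carnitine genes, the 3 palmitoyltransferases on either side of Slc25a20 were higher in LV, Cpt1a by 2.44, Cpt2 by 1.02 and the muscle isoform Cpt1b by 0.84. Carnitine acetyltransferase Crat (-0.28) and the cell-surface carnitine transporter Slc22a5 (-0.23) were lower. Of the creatine kinases, which pass on the phosphate of exported ATP, the mitochondrial Ckmt2 (0.42) and the cytosolic Ckb (1.13) were higher and the cytosolic muscle form Ckm was lower (-3.54). Ckmt2 had an edgeR adjusted p of 0.000923, Crat 0.017 and Slc22a5 0.0096, and the other 9 genes had an edgeR adjusted p of 2.31e-05 or less. Both subunits of the pyruvate carrier, Mpc1 (-0.15) and Mpc2 (0.09), did not pass.

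Training changed 1 of 45 genes of this list in SM and 0 of 45 in LV by edgeR, and 0 of 44 in MT, against 0.206%, 0.0% and 0.0% of all genes. The gene was Got1, the cytosolic transaminase of the malate-aspartate shuttle. It had 181 to 398 scaled CPM in SM_Sed (median 321) and 339 to 505 in SM_ExT (424), a log2 fold change of 0.43 (edgeR adjusted p 0.0164) with overlapping groups.

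Slc25a47, a carrier known from liver, had its highest counts among SM and LV libraries in LV_Sed rat 20 and SM_Sed rat 7, which also held liver transcripts. LV_Sed rat 20 had 55 counts of Slc25a47, 92529 of the plasma protein gene Alb and 1266 of Apoa1. SM_Sed rat 7 had 35, 11897 and 230, and SM_ExT rat 2 had 4, 3225 and 94. The other libraries had at most 1 count of Slc25a47 in SM_Sed, 2 in SM_ExT, 4 in LV_Sed and 10 in LV_ExT, and at most 12, 72, 2304 and 1718 of Alb. The library with 10 counts of Slc25a47, LV_ExT rat 25, had 36 of Alb. Slc25a47 was not tested between SM and LV. Without LV_Sed rat 20, 14 members were higher and 11 lower in LV in Sed (78.6% of genes called), and 0 members were called for training in LV. In SM, 0 were called without SM_Sed rat 7 and 0 without SM_ExT rat 2.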

How the data were processed

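Gene counts were deposited by the authors as whole-number reads per gene for 74 libraries, with 30560 genes and no normalization. Per the submitters' processing notes, FastQC 0.74, cutadapt 4.6, STAR 2.7.11a and HTSeq were used with the rat build mRatBN7.2, and the strand setting of the counting is not given in the sources used here. Raw counts were fitted with edgeR 4.0.16 in R 4.3.3 (TMM scaling, filterByExpr, robust quasi-likelihood test) over the whole table of the groups compared, and p-values were adjusted by Benjamini-Hochberg over all genes tested in each of 9 tests. Calls were made at an adjusted p under 0.05. LV was compared with the SM libraries of the same rats. The rat was not a term in any main fit and entered only as a block among the alternatives.

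Levels were given as TMM-scaled CPM over SM and LV, or as nuclear CPM (CPM over nuclear-encoded counts) where MT entered, leaving out 37 mitochondrial-genome genes. A count of 3 was taken as the floor, which is 0.115 to 0.226 nuclear CPM in SM, 0.0713 to 0.101 in LV and 2.84 to 6.97 in MT, and covers counting error only. The pairing of tissues comes from the labels, where one rat number is one animal. Deviations from the group means had a median correlation of 0.049 between SM and LV of the same rat (14 rats) and 0.0249 between SM and MT (30 rats). Between different rats these medians were -0.0101 and 0.00072. The library of the same rat was the best match for 3 of the 14 rats with LV and 2 of the 30 with MT.

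Alternatives were RLE factors, library totals, no filter, DESeq2 1.42.0, mitochondrial-genome genes left out, rat ranges, all SM libraries, thinning to the smallest total, the rat as block and, added after seeing the data, libraries that stood apart left out. Simulated data were used to test the edgeR fits of training in SM, LV against SM in Sed and the training effect in LV minus SM. No fit with MT libraries was simulated. The members, pairs and gene lists were chosen with earlier results of these data known. Named were members of related pairs, members called, and those nearest to a call, and Slc25a47, Slc25a48, Slc25a31 and Slc25a54 were named after their values were seen. Slc25a3, Slc25a16, Slc25a34 and Slc25a51 were not analysed here, and the values of 1 member are not reported here. Promoters were taken from RefSeq (GRCr8), matched by symbol.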

Additional observations from a re-analysis of the deposited data

Results flagged for a closer look

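In LV_Sed, the dicarboxylate carrier Slc25a10 had 5.35 scaled CPM in rat 30, below the next library at 6.43 and the highest at 6.92. The gap was 0.683 of the range of the 7 libraries, above the critical value of 0.568. In all, 68 groups of 7 libraries were examined and 1 had a library apart, where chance at 1 in 20 would give 3.4.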

How the results depend on the processing

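The numbers of members called were among 114 recomputed results, of which 110 stayed within 1.5 times their main value. The exceptions were training in SM, with 1 member called by DESeq2 and 1 in rats 2 to 16 in place of 0, and MT against SM after thinning to the smallest total, with 14 in Sed and 11 in ExT because fewer genes could be tested. With the rat as a replicate block, 26 and 27 members were called for LV against SM in Sed and ExT and 40 and 37 for MT against SM, and 0 for the training differences between MT or LV and SM, so that the pairing changed no count. Among the members named, the sign of small differences between LV and SM turned in 7 cases. With library totals alone these were, in Sed, Slc25a4 (0.0691), Slc25a17 (0.087) and Slc25a32 (0.23), and in ExT Slc25a4 (0.0817) and Slc25a17 (0.14). Without the filter on low counts it was Slc25a32 (0.027) in Sed, and with all SM libraries Slc25a32 (0.00021) in Sed. The cause was not tested. DESeq2 called Slc25a4 lower in LV in Sed (-0.19, adjusted p 0.0244). Among single members, 16 further values passed the threshold only under an alternative and 7 no longer passed, while 696 kept direction and side. Depth limits MT, where Slc25a4 rests on 14 to 62 counts per MT_Sed library.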

Other observations

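Slc25a33, a pyrimidine nucleotide carrier annotated as a pseudogene in these tables, had a median of 10.6 CPM over nuclear-encoded counts in SM_Sed, with a range of 6.48 to 13.5.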
